A study of Homo sapiens with 6 samples.

Results

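The 36 genes described here are identity genes of blood cells, read in a line of liver carcinoma cells. They were given as a list of surface receptors, signalling proteins, granule proteins and transcription factors that mark leukocytes and blood progenitors, and were taken from 19974 coding genes on chromosomes 1 to 22 and X. For each gene, the peaks that overlapped its span plus 1 kb on either side, by at least 1 bp, were counted in each library, and the same was done with 5 kb. The cells were PLC/PRF/5, an established human hepatocellular carcinoma line that the labels trace to 2 cell banks, without saying which stock gave which library. All libraries carry lactylation of histone H4 at lysine 5 (H4K5la), precipitated with the antibody PTM-1407RM and sequenced, which is chromatin immunoprecipitation sequencing. Untreated cells gave 2 libraries (replicates 2 and 3), and cells cultured in 20 mM lactate for 24 h gave 2 libraries (replicates 2 and 3). The 2 input libraries, which had no antibody, were not analysed here. Nothing in the labels says that replicates came from separate cultures, so their spread may be technical.

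Lactylation places a lactate-derived acyl group on lysine, and the histone forms of the mark are studied as a link between glycolysis and chromatin. Blood cell identity is set by transcription factors such as PU.1, GATA factors, Ikaros and PAX5, which act on the genes of receptors and granule proteins. These genes are textbook markers of leukocytes and are not used as markers of hepatocytes, although GATA2 and RUNX3 also act in other tissues. A peak shows where the signal passed the caller's cut-off and is not a measure of expression, and signal under that cut-off would leave no peak. In a bulk lysate, more cells carrying the mark at a locus and more mark per cell cannot be told apart.

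The 4 lists held between 37951 and 52959 peaks, with fewer and narrower peaks in both lactate lists than in both untreated lists. Median widths were 547 and 537 bp in the untreated lists and 448 and 437 bp in the lactate lists. The lists hold no read counts, so the depth is unknown. Values for the libraries are given below in the order untreated 2, untreated 3, lactate 2 and lactate 3.

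Blood identity genes held H4K5la peaks in this carcinoma line more often than coding genes did as a whole. Of the 36 genes, 21 (58.3%) had a peak in all 4 libraries, and 28.6% of all coding genes did. These 21 were INPP5D, CD5, CD7, LCK, ZAP70, CD79A, CD79B, PAX5, NKG7, GNLY, PRF1, CD14, ITGAM, ITGAX, CSF1R, MPO, SPI1, GATA2, IKZF1, RUNX3 and TBX21. The macrophage gene CD68 alone had a peak in both untreated libraries and in neither lactate library (2.78% of the 36, against 5.66% of coding genes). Peaks in both lactate libraries and in neither untreated library were seen at 0 of the 36 genes, and at 1.07% of coding genes. Another 7 genes, CD3E, CD4, CD8A, CD8B, CD22, GZMB and GATA1, had a peak in some other combination of libraries (19.4%, against 18.7% of coding genes). The remaining 7, PTPRC, CD3D, CD3G, CD2, MS4A1, CD163 and LYZ, had no peak in any library (19.4%, against 45.9% of coding genes).

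**Figure D1:**
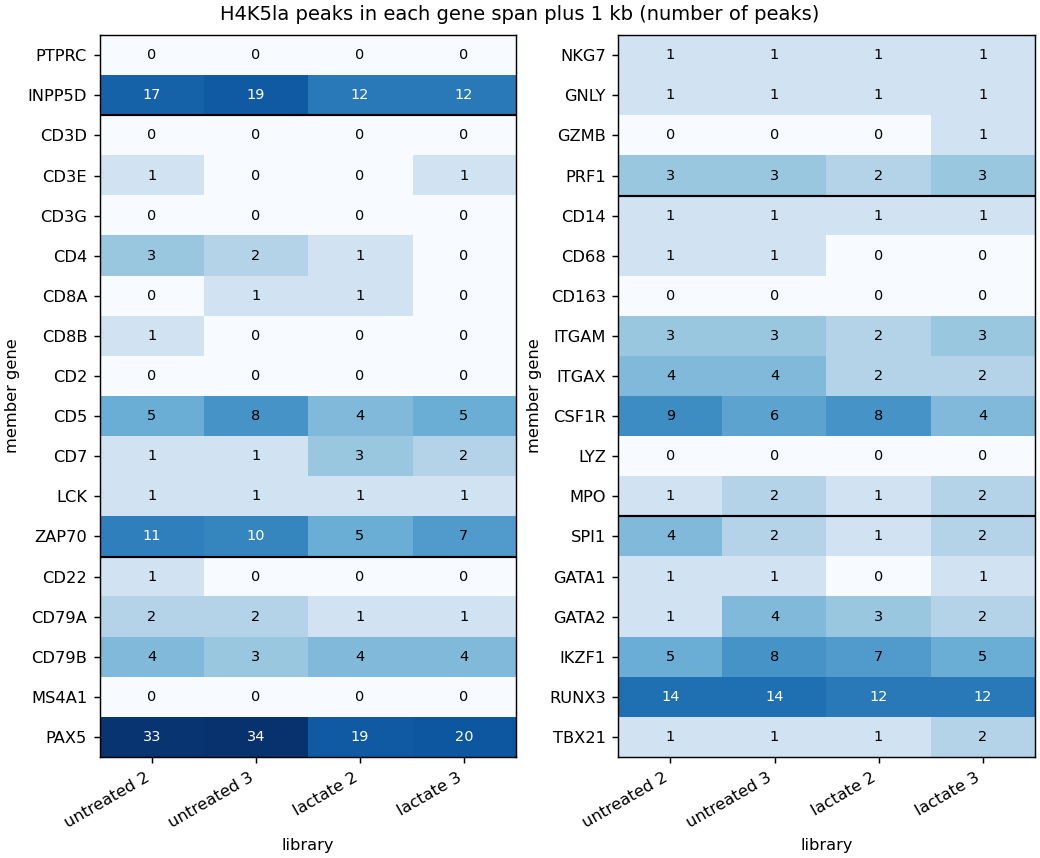
Number of H4K5la peaks in the span plus 1 kb of each of the 36 genes (rows, with lines between lineages) in each of the 4 libraries (columns); darker cells hold more peaks. PAX5 holds 19 to 34 peaks a library and INPP5D 12 to 19, while PTPRC, CD3D, CD3G, CD2, MS4A1, CD163 and LYZ are at 0 throughout.

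The set was also compared with coding genes of similar length. For each member, the 200 coding genes nearest in span length were taken, leaving out the members and a further list of 68 blood-restricted genes. From their shares, 9.44 of 36 genes would have a peak in all 4 libraries and 17.7 would have none, against 21 and 7 among the blood identity genes. The wider window of 5 kb left every member in the same state: 21 genes in all 4 libraries beside 33.0% of coding genes, 1 untreated only beside 5.77%, 0 lactate only beside 1.11%, 7 in another combination beside 19.5%, and 7 without a peak beside 40.6%. At 5 kb the genes nearest in length gave 11.4 genes in all 4 libraries and 15.4 with none. These comparisons are descriptions without a test, since the 36 genes were listed with earlier results of these data known.

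**Figure D2:**
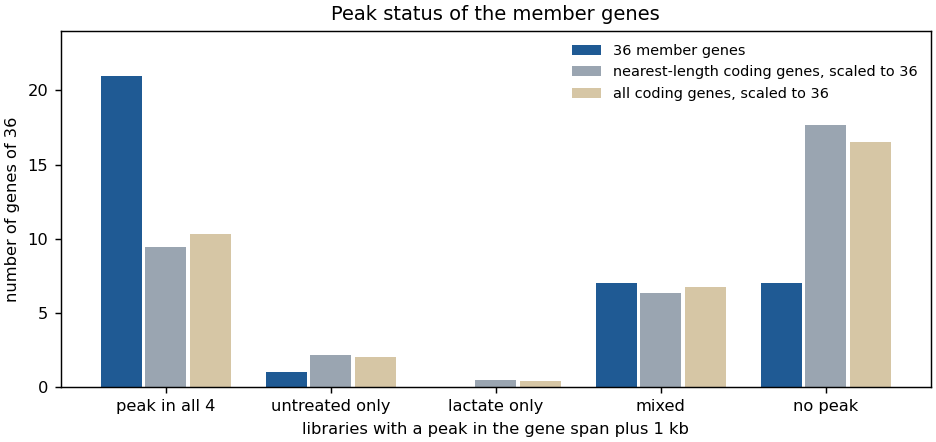
Number of the 36 genes in each peak state (blue), beside the number that the 200 coding genes nearest in length (grey) and all coding genes (tan) would give when scaled to 36. The bar for a peak in all 4 libraries stands at 21, against 9.44 and 10.3.

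Where a gene had a peak in every library, it was a peak in the same place. Each of the 21 genes had at least 1 region in which overlapping peaks came from all 4 libraries. Among coding genes, 5196 (26.0%) had such a region and 5720 (28.6%) had a peak in all 4 libraries. A shared place was thus usual among coding genes as well, and is not particular to this set. Most of these peaks lay inside the genes. The summit fell within the gene span for 91.5, 90.2, 90.3 and 91.6% of the peaks of the set. The same share was not computed for coding genes. Within 1 kb of a gene end, 13 genes (36.1%) had a peak in all 4 libraries, against 10.4% of coding genes: INPP5D, CD7, LCK, CD79B, PAX5, NKG7, GNLY, PRF1, CD14, CSF1R, SPI1, GATA2 and RUNX3. CD5, ZAP70, CD79A, ITGAM, ITGAX, MPO, IKZF1 and TBX21 were in the first 21 and were not among these 13.

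Start sites could be examined for the 24 genes with an entry in a RefSeq promoter table (GRCh38.p14), which gave 35 promoters of 250 bases before to 50 after a start. A peak from all 4 libraries overlapped 6 of them, at INPP5D, LCK, the third start of ZAP70, PRF1, CSF1R and RUNX3, while 22 had none. Over all 22156 promoters of coding genes in the table, 2.73% had a peak in all 4 libraries and 86.3% had none. The 250 bases before the start are printed for these 6, and for PTPRC, whose whole gene was free of peaks. Capitals mark each match, on either strand, to any of 6 short motifs. GATA factors were searched as AGATAA, RUNX factors as TGTGGT, ETS factors as CCGGAA, the PU.1 core as GAGGAA, the GC box as GGGCGG and the TATA box as TATAAA, and matches could overlap. The sequences are written 5′ to 3′ on the strand of the gene, from chr2:233060092-233060341 (plus) for INPP5D, chr1:32251015-32251264 (plus) for LCK, chr2:97733050-97733299 (plus) for ZAP70, chr10:70602742-70602991 (minus) for PRF1, chr5:150113366-150113615 (minus) for CSF1R, chr1:24965011-24965260 (minus) for RUNX3 and chr1:198638790-198639039 (plus) for PTPRC.
INPP5D: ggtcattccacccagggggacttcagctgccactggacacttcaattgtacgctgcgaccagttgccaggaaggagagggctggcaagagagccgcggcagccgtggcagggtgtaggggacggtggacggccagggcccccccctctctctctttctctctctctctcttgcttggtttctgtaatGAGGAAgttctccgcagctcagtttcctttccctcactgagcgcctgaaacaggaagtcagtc
LCK: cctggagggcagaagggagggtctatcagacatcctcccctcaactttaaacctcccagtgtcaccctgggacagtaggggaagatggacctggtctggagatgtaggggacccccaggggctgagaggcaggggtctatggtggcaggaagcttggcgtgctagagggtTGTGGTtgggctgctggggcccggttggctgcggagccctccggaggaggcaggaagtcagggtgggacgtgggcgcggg
ZAP70: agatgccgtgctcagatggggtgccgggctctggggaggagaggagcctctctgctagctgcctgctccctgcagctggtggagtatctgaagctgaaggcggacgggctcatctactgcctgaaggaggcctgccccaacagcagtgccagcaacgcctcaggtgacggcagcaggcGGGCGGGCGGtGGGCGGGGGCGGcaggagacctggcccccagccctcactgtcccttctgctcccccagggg
PRF1: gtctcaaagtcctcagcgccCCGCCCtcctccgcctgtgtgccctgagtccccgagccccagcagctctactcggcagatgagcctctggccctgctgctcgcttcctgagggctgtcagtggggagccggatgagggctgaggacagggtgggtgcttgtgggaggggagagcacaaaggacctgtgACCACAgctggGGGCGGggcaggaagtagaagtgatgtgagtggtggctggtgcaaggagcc
CSF1R: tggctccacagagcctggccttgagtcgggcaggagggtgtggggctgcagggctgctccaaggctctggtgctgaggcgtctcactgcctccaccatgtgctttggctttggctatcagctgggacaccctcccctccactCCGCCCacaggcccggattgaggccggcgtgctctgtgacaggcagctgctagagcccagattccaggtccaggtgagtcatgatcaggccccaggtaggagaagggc
RUNX3: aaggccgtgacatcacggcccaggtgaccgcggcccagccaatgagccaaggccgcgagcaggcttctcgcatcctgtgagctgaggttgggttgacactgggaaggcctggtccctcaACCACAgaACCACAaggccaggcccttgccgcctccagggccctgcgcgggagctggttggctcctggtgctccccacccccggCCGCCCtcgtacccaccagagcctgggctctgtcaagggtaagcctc
PTPRC: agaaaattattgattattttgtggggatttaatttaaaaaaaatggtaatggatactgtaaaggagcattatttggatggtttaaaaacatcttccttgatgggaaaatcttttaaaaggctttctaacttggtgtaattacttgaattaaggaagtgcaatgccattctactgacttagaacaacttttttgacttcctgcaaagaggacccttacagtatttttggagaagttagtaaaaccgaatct

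The peaked starts of PRF1, CSF1R and RUNX3 and the third start of ZAP70, with 4 matches, hold the GC box, which stood in 13 of the 35 promoters and in 53.7% of all promoters. The RUNX letters occur in LCK, PRF1 and, as a pair of matches, in RUNX3 itself, and stood in 9 of the 35 and 9.38% of all. INPP5D holds the PU.1 core, found in 15 of the 35 and 23.7% of all, while no motif of the 6 was found in the PTPRC window. The GATA letters stood in 1 of the 35 (7.08% of all), the ETS letters in 1 (17.9%) and the TATA box in 2 (9%). The ETS letters CCGGAA themselves contain a CpG, and other forms of the ETS site were not searched. The promoters of the set were poor in CpG, with a median of 5 CpG in 250 bases, against 16 over all promoters. A match describes the letters and is not a bound site.

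The pan-leukocyte genes were at opposite ends of the set. PTPRC, which encodes the CD45 phosphatase of nucleated blood cells, spans 118764 bp (chr1:198638713-198757476) and had 0 peaks in each library. Of the 200 genes nearest to it in length, 38.5% had no peak and 35.5% had a peak in all 4 libraries. INPP5D, which encodes the inositol phosphatase SHIP1 of blood cells, spans 147562 bp (chr2:233060342-233207903) and had 17, 19, 12 and 12 peaks. Only 11, 11, 13 and 13 of the 200 genes nearest in length had as many. Its widest peak sat across the start of the gene, in the promoter printed above, and measured 2026, 2032, 1984 and 1987 bp. That peak was almost as wide after lactate as before, and its fold enrichment, the authors' value over background at the summit, was 15.5, 17.7, 14.7 and 15.3. By that fold it ranked in the top 0.529, 0.351, 2.61 and 2.3% of each list.

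Among the 11 T cell genes, 4 had a peak in all 4 libraries (3.08 from genes of equal length), 4 had another combination and 3 had no peak. The signalling kinases and the surface proteins CD5 and CD7 made up the first group. ZAP70, the kinase recruited to activated T cell receptors (chr2:97713576-97756364), had 11, 10, 5 and 7 peaks, with widest peaks of 1723, 1714, 729 and 1463 bp. Its first start had a peak in 3 libraries, with folds of 15.6 in untreated 2, 10.1 in untreated 3 and 5.11 in lactate 3, and the third start had one in all 4. LCK, the kinase that begins T cell receptor signalling, had 1 peak in each library, over its first promoter, with widths of 682, 518, 521 and 491 bp. The folds of this peak were 5.05, 8.47, 13.7 and 11.3, higher in both lactate libraries than in both untreated libraries. The second LCK promoter had none. CD5, an inhibitory receptor of T cells, had 5, 8, 4 and 5 peaks and widest peaks of 1412, 1450, 469 and 448 bp.

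CD7, a surface protein of early T and NK cells, carried the widest peak of the set. The gene spans 2736 bp (chr17:82314873-82317608), and in the untreated libraries a single peak covered it from end to end, at chr17:82313640-82318128 in replicate 2 and chr17:82313662-82318242 in replicate 3. These peaks were 4489 and 4581 bp wide. After lactate the same stretch held 3 peaks in replicate 2 and 2 in replicate 3, the widest of 815 and 838 bp. The share of the window under peaks was accordingly 89.9, 92.3, 30.3 and 28.9%. The number of peaks was thus higher after lactate at CD7, while the length under peaks was lower.

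The antigen receptor chains and coreceptors had few peaks or none, as did many coding genes of their lengths. Of the 200 genes nearest in length to CD3D, CD3E, CD3G, CD4, CD8A, CD8B and CD2, 59.5, 47.5, 44.5, 44, 42.5, 46.5 and 45% had no peak in any library. CD3D and CD3G, chains of the T cell receptor complex that lie side by side on chromosome 11, had 0 peaks, as did the adhesion receptor CD2. CD3E, their neighbour, had 1, 0, 0 and 1 peaks. The coreceptor CD4 had 3, 2, 1 and 0 peaks, of which 1 in each untreated library also touched the neighbouring gene GPR162. CD8A had 0, 1, 1 and 0 peaks and CD8B, next to it on chromosome 2, had 1, 0, 0 and 0. None of these reached both libraries of both treatments.

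Of the 5 B cell genes, 3 had a peak in all 4 libraries (1.41 from genes of equal length). PAX5, the transcription factor that commits cells to the B lineage, is the longest gene of the set at 201000 bp (chr9:36833269-37034268) and had 33, 34, 19 and 20 peaks. That was 25.4, 25.6, 20.4 and 21.1% of the peaks of all 36 genes. Of the 200 genes nearest to it in length, 8, 8, 12 and 11 had as many peaks, and their median was 1 in untreated 2. The peaks of PAX5 fell into 38 regions, of which 14 were peaked in all 4 libraries, 7 in both untreated libraries alone, and 17 in another combination. Its widest peak, at the lower end of the span, measured 2069, 2832, 1939 and 2204 bp. Of the 5 regions of the set whose folds ranked best on average, 3 were in PAX5: chr9:36834021-36837186 with folds of 15.1, 14.4, 12.0 and 14.3, chr9:36840314-36840890 with 11.3, 10.7, 18.2 and 19.5, and chr9:36854718-36855360 with 11.7, 9.92, 16.8 and 10.9. The others were the INPP5D start and a region of IKZF1 at chr7:50349910-50350387, with 12.0, 12.0, 10.8 and 12.3.

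The partner chains of the B cell receptor both had a peak in all 4 libraries. CD79B (chr17:63928740-63932331) had 4, 3, 4 and 4 peaks in a span of 3592 bp, and 1, 10, 1 and 2 of the 200 genes nearest in length had as many. Its peaks covered 63.3, 77.1, 27.5 and 33.4% of the window, with widest peaks of 1818, 2524, 736 and 796 bp. CD79A had 2, 2, 1 and 1 peaks, the widest of 575, 627, 490 and 327 bp. The highest folds at CD79A, 4.36, 4.86, 4.75 and 3.83, were exceeded by most peaks of their lists. CD22, an inhibitory receptor of B cells, had a peak of 683 bp in untreated 2 alone, and MS4A1, which encodes CD20, had none.

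All 4 genes of cytotoxic granules had a peak in some library, and 3 had one in all 4 libraries (0.525 from genes of equal length). PRF1, which encodes the pore-forming protein perforin (chr10:70597348-70602741), had 3, 3, 2 and 3 peaks, the widest of 749, 869, 504 and 688 bp. Its promoter peak had folds of 9.22, 9.04, 7.28 and 11.4. GNLY, which encodes granulysin, had 1 peak in each library, of 460, 403, 334 and 377 bp. NKG7, a granule membrane protein encoded by only 1035 bp of genome, had 1 peak in each library, of 1456, 561, 423 and 304 bp. Among the genes nearest in length to NKG7, 6% had a peak in all 4 libraries. The serine protease gene GZMB had a single peak of 313 bp, in lactate 3.

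Of the 8 myeloid genes, 5 had a peak in all 4 libraries (1.94 from genes of equal length). CSF1R, the receptor for macrophage colony-stimulating factor (chr5:150053295-150113365), had 9, 6, 8 and 4 peaks. Its widest peak measured 2463, 2427 and 2369 bp in untreated 2, untreated 3 and lactate 3 at the same place inside the gene, and in lactate 2 no peak of the gene exceeded 806 bp. At its first promoter the folds were 10.5, 12.4, 3.48 and 4.90. The integrin chains ITGAM and ITGAX, neighbours on chromosome 16, had 3, 3, 2 and 3 peaks and 4, 4, 2 and 2 peaks. Their widest peaks were 657, 1222, 652 and 596 bp for ITGAM, and 1539, 1482, 325 and 964 bp for ITGAX. MPO, the peroxidase of neutrophil granules, had 1, 2, 1 and 2 peaks, the widest of 1053, 885, 1064 and 1043 bp. Its libraries did not separate by treatment in number or width of peaks. The highest folds at MPO were 6.93, 9.31, 12.0 and 9.66, above both untreated libraries in both lactate libraries.

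CD14, the lipopolysaccharide coreceptor of monocytes, had 1 peak in each library, of 1334, 1290, 1165 and 1127 bp. Each of these also touched TMCO6, the adjoining gene, so it cannot be assigned to CD14 alone. CD68, a lysosomal protein of macrophages, had a peak of 724 and 1005 bp in the untreated libraries, just beyond its upper end at chr17:7582703-7583426 and chr17:7582483-7583487, and none after lactate. Their folds of 5.17 and 6.24 were exceeded by most peaks of their lists. The hemoglobin scavenger receptor CD163 and the lysozyme gene LYZ had 0 peaks.

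Each of the 6 transcription factors had a peak in some library: 5 had a peak in all 4 libraries (1.73 from genes of equal length), and GATA1, the erythroid factor on chromosome X, had 1, 1, 0 and 1. RUNX3, a factor of cytotoxic T cells (chr1:24899511-24965138), had 14, 14, 12 and 12 peaks, and 9, 8, 5 and 8 of the 200 genes nearest in length had as many. Of its 17 regions, 9 were peaked in all 4 libraries. Its first promoter carried peaks with folds of 10.7, 13.6, 5.40 and 7.36, and its second promoter, with 33 CpG in 250 bases, had none. IKZF1, which encodes Ikaros, had 5, 8, 7 and 5 peaks, with widest peaks of 1112, 1072, 550 and 812 bp. TBX21, which encodes the T helper factor T-bet, had 1, 1, 1 and 2 peaks, of at most 326, 338, 345 and 438 bp.

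SPI1, which encodes the myeloid and B cell factor PU.1 (chr11:47354860-47378547), had 4, 2, 1 and 2 peaks. A peak of 2096 and 2118 bp stood at its upper end in the untreated libraries, at chr11:47376717-47378812 and chr11:47376676-47378793, and the widest peak there after lactate was 652 and 623 bp. GATA2, a factor of blood stem and progenitor cells (chr3:128479422-128493201), had 1, 4, 3 and 2 peaks. The single peak of untreated 2 was 2191 bp wide, and in the other libraries the same part of the gene was divided into peaks of at most 1604, 775 and 843 bp. The count of peaks here depended in part on how a broad stretch was divided. That stretch held 1, 2, 2 and 2 peaks, and the remaining peaks of untreated 3 and lactate 2 lay apart from it.

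**Figure D3:**
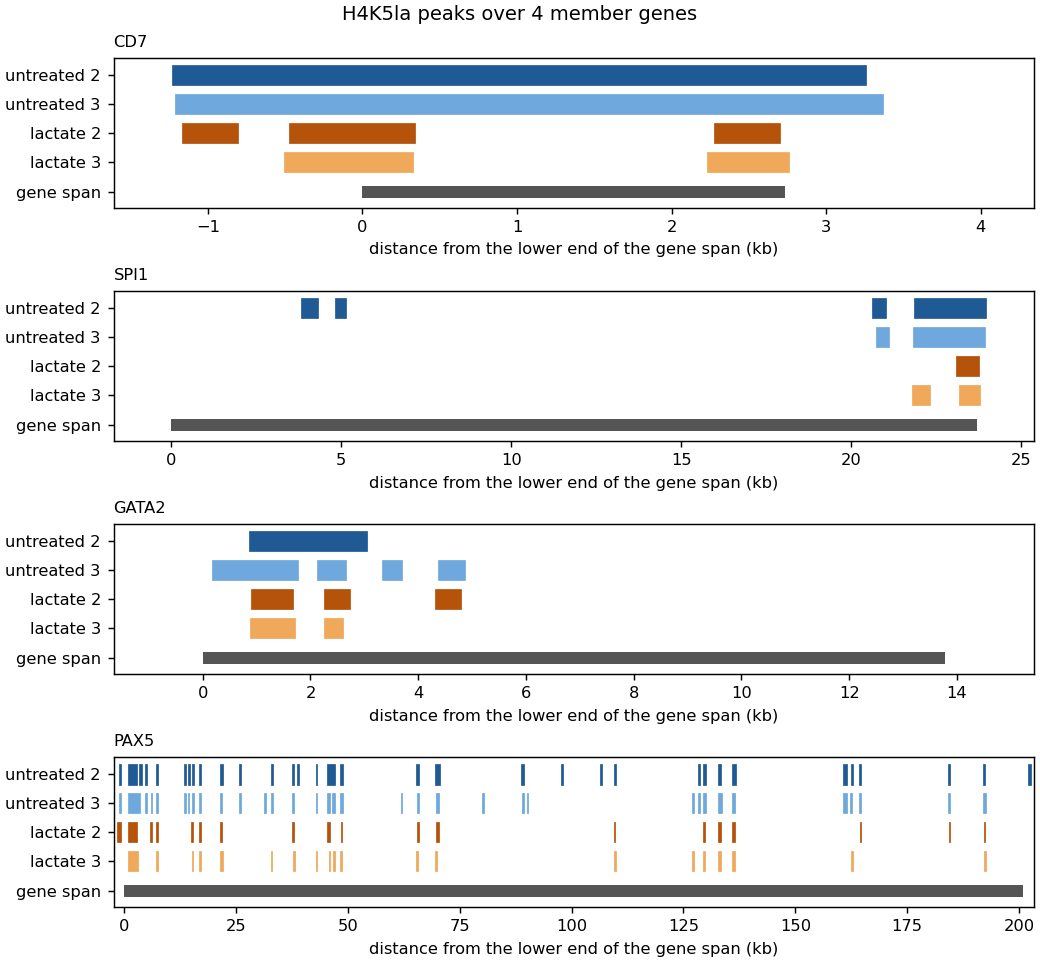
Peaks (bars) of each library over CD7, SPI1, GATA2 and PAX5, against distance in kb from the lower end of the gene span (grey bar). CD7 is under 1 peak in each untreated library and under 3 and 2 narrower peaks after lactate, and the peak at the upper end of SPI1 is above 2 kb in both untreated libraries and under 1 kb in both lactate libraries.

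The lactate comparison asked whether these genes gained or lost the mark when lactate was supplied. Both lactate libraries were below both untreated libraries in 4 measures of the set. The 36 windows held 130, 133, 93 and 95 peaks, or 132 ± 2.12 untreated against 94 ± 1.41 with lactate (mean ± SD, n = 2 each), a ratio of 0.715. The whole lists differed in the same direction, with 52215, 52959, 37951 and 38402 peaks. The bases under peaks were 94635, 93964, 47760 and 53618, or 7.33, 7.28, 3.70 and 4.15% of the windows, a ratio of 0.538. The windows of all coding genes were under peaks for 2.25, 2.28, 1.19 and 1.18% of their length, below the blood genes in each library. From the genes nearest in length, 39489, 40690, 20590 and 20533 bases would be under peaks, also below the blood genes in each library. Genes of the set with a peak numbered 27, 25, 23 and 24, a ratio of 0.904, beside 44, 45.6, 36.9 and 37.4% of coding genes. The median width of the peaks was 544, 487, 424 and 427 bp, a ratio of 0.826, beside 563, 554, 454 and 444 bp for the peaks of coding genes. Each of these orders was thus also that of coding genes or of the lists as a whole. With 2 libraries against 2, the smallest p that an exact two-sided permutation test can give is 0.333, so that test cannot place any of these differences under the usual threshold.

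The ratios of peaks and of genes moved with the length of the lists. When each library was reduced to its 37951 strongest peaks by p-value, the set held a mean of 102 peaks untreated and 93.5 with lactate, a ratio of 0.912 in place of 0.715. A mean of 23.5 genes then had a peak in either treatment, and the bases under peaks had a ratio of 0.625. LCK and CD79A then left the genes with a peak in all 4 libraries, which were 19.

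Most single genes followed the same direction. Among the 21 genes with a peak in all 4 libraries, the bases under peaks were fewer in both lactate libraries than in both untreated libraries at 17 (81.0%), and 68.7% of the 5720 coding genes with a peak in all 4 libraries showed this order. The ratio of lactate to untreated was 0.308 at SPI1, 0.325 at CD7, 0.360 at NKG7, 0.371 at ITGAX, 0.378 at CD5 and 0.390 at CD79A, and the median of the 21 was 0.581, against 0.615 over those coding genes. The order was opposite at TBX21 alone (4.76%, against 4.79% of those coding genes), with 2.19 and 2.27% of its window under peaks untreated and 2.32 and 5.23% with lactate, a ratio of 1.69. LCK, MPO and IKZF1 had treatments that overlapped, with ratios of 0.843, 1.14 and 0.770. CD14 and GNLY were nearest to 1 among the 17, at 0.873 and 0.824.

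**Figure D4:**
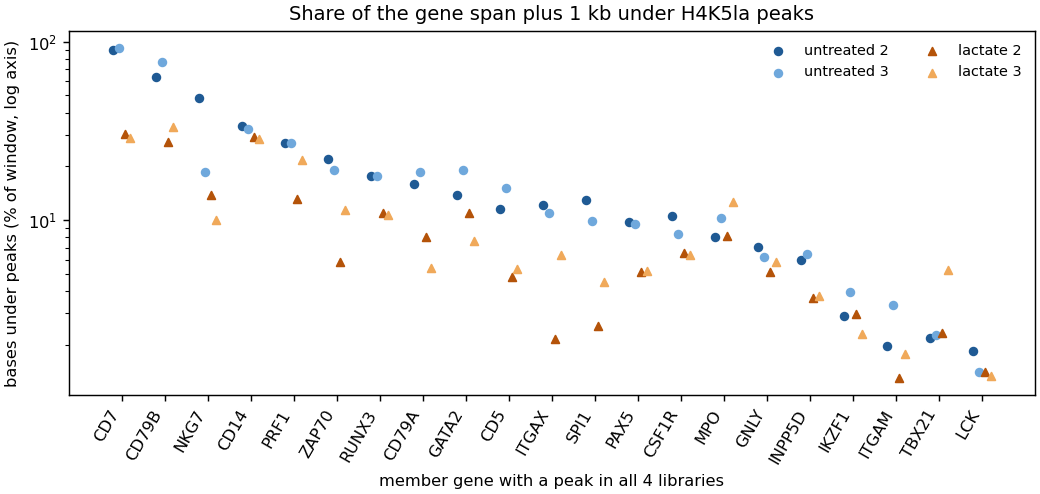
Share of the span plus 1 kb that lies under peaks (percent, log axis) for the 21 genes with a peak in all 4 libraries, ordered by the untreated mean; circles are untreated and triangles lactate libraries. Lactate triangles lie below both circles at 17 genes, above them at TBX21, and among them at LCK, MPO and IKZF1.

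Wide peaks were mostly those of the untreated libraries. Both untreated libraries held a peak of at least 2 kb at 6 genes, INPP5D, CD7, PAX5, CSF1R, SPI1 and RUNX3, beside 4.38% of coding genes. At RUNX3 the wide peaks lay in different places, at chr1:24963939-24965974 in untreated 2 and at chr1:24904098-24906505 in untreated 3. No gene of the set had one in both lactate libraries, beside 0.461% of coding genes. INPP5D missed this cut-off narrowly with lactate, at 1984 and 1987 bp against 2026 and 2032 bp untreated. Single lactate libraries held such a peak at PAX5 and CSF1R, both in lactate 3. In all, 7, 7, 0 and 2 peaks of the set were this wide, which is 5.38, 5.26, 0 and 2.11% of its peaks, beside 5.63, 5.53, 0.833 and 0.805% of the peaks of coding genes. In the untreated libraries, wide peaks were thus no larger a share of the peaks of the set than of those of coding genes.

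The peaks of the set merged into 172 regions. Of these, 59 (34.3%) were peaked in all 4 libraries, 23 (13.4%) in both untreated libraries alone and 86 (50%) in other combinations. Over the 47270 regions of all coding genes the shares were 29.8, 15.0 and 52.5%. Peaks in both lactate libraries alone made up 4 regions (2.33%, against 2.67%): chr2:233130496-233130843 in INPP5D, chr11:61122772-61123208 and chr11:61125004-61125478 in CD5, and chr16:31265674-31265998 in ITGAM. All 3 genes also had peaks in both untreated libraries.

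A few genes held many of the peaks. PAX5, INPP5D, RUNX3 and ZAP70 together had 75, 77, 48 and 51 of the peaks, which is 57.7, 57.9, 51.6 and 53.7%. These genes were picked for their high counts. They span 201000, 147562, 65628 and 42789 bp, and all windows of the set together hold 1291462 bp. The part of gene length in this share was not tested. Without PAX5, the ratio of peaks with lactate to untreated was 0.760. Peaks of the set had a median fold of 7.82, 8.29, 6.77 and 7.23, beside 7.06, 7.52, 7 and 7.18 for the peaks of all coding genes.

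The surroundings of the genes moved with their state. Peak summits between 5 and 100 kb from the gene, on either side, were counted for each gene. The 21 genes with a peak in all 4 libraries had a median of 16, 17, 12 and 9 such peaks, from at least 3, 3, 4 and 2 up to 36, 36, 27 and 29. The 7 genes without a peak had a median of 0, 1, 1 and 0, and at most 2, 1, 1 and 2. The 8 genes with a peak in some libraries had a median of 2.5, 3, 1.5 and 2. These ranges do not overlap between the first group and the genes without a peak except at 2 in lactate 3. Over all coding genes such groups did overlap: genes without a peak had a median of 1 in each library and ranged from 0 to 72, 65, 55 and 55, and genes with a peak in all 4 libraries ranged from 0 to 70, 69, 65 and 66. Among all coding genes the median was 3, 3, 2 and 2, and among those with a peak in all 4 libraries it was 9, 9, 6 and 6. CD7 (35, 36, 24 and 29) and GATA2 (36, 30, 27 and 24) had the most, whereas PAX5 had only 5, 3, 5 and 5 around its own 19 to 34. The part of the neighbourhood in the result was not tested.

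**Figure D5:**
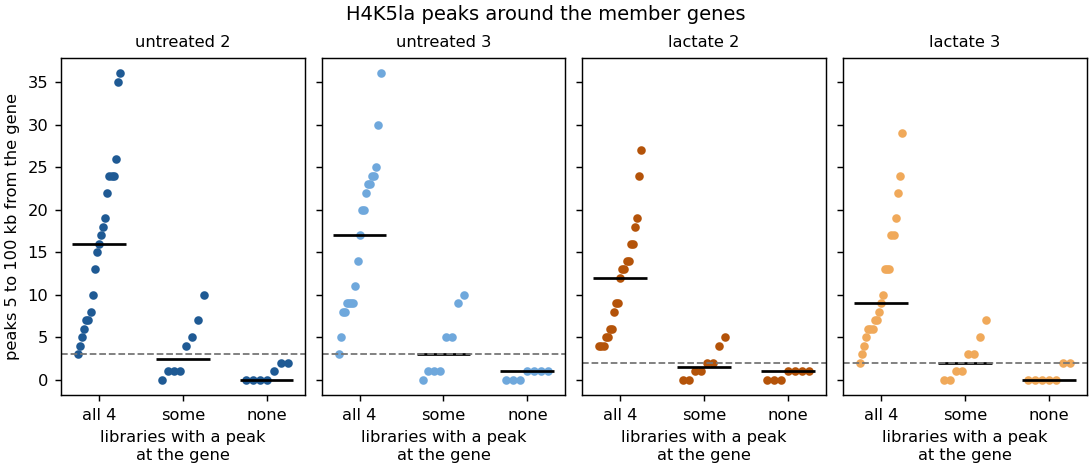
Peaks with a summit 5 to 100 kb from each of the 36 genes, by library, for genes with a peak in all 4 libraries, in some and in none; each point is a gene, the bar is the group median and the dashed line the median of all coding genes. Genes with a peak in all 4 libraries have medians of 9 to 17, and genes without a peak have medians of 0 to 1.

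A second list of 68 blood-restricted genes, which shared no gene with the 36, was nearer to the coding genes. It had 27 genes (39.7%) with a peak in all 4 libraries, 5 with peaks in both untreated libraries alone, 13 in another combination and 23 (33.8%) with none, and genes of equal length would give 19.0 and 31.8 for the first and the last. No gene of this list had peaks in both lactate libraries alone. Its 6 genes with the most peaks were the leukocyte integrin chain ITGB2 with 14, 16, 17 and 19, the T cell factor TCF7 with 12, 13, 7 and 10, the interleukin receptor chain IL2RB with 12, 10, 7 and 9, the B cell kinase BLK with 10, 9, 5 and 5, the ETS factor FLI1 with 9, 9, 5 and 5, and the platelet and erythroid factor GFI1B with 6, 6, 5 and 6. ITGB2 was the 1 gene of these 6 with more peaks in both lactate libraries than in both untreated libraries. CD37, ELANE, S100A9, FCER1G and CORO1A were the 5 with untreated peaks alone.

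Liver and epithelial genes were counted in the same way, and few of them held peaks. A peak is not a measure of expression, so these counts do not test the labelled cell type. Of 18 hepatocyte markers, 3 had a peak in all 4 libraries, among them HNF4A with 14, 12, 6 and 7 peaks and APOC3 with 2 in each. APOA1 had 1 peak in each untreated library and none with lactate, SERPINA1 and TF had a peak in 1 library each, and 12 had none, among them ALB and AFP, the defining secreted proteins of hepatocytes and liver tumours. Genes of equal length would give 4.55 with a peak in all 4 libraries and 8.85 with none. Of 4 epithelial genes, KRT8 had 0, 1, 1 and 1 peaks, and KRT18, EPCAM and CDH1 had none.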

How the data were processed

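H4K5la was measured in 2 untreated and 2 lactate libraries of PLC/PRF/5 cells, grouped by the treatment label. Per the submitters' processing notes, the tools named are MACS2 2.2.6, Bowtie2 2.3.4.2, Picard 2.18.11, SAMtools 1.9, FastQC 0.11.7 and Trimmomatic 0.38, and the build is hg38. The authors deposited 1 peak list per library, called separately, giving each peak a score, a fold enrichment, which is a ratio, and a −log10 p-value and −log10 q-value. The smallest deposited −log10 q was 2.00 to 2.02. The lists hold no read counts.

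Gene spans were read from RefSeq's table for GRCh38.p14, the same build, which gives neither strand nor exons, so exonic and intronic positions were not assigned. Peaks were counted with numpy 2.4.6 and pandas 2.3.3 under Python 3.11.15, after the counting was tested on simulated data. Neighbouring genes were checked among coding genes only. Promoters were matched by symbol for 24 of the 36 genes.

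The members and the lists were chosen with earlier results of these data known. Every member is named. Values for each library follow for genes with a peak in both libraries of a treatment, together with the 5 regions of best mean fold rank and the 6 other blood genes with the most peaks. Other members and values were named after they were seen. The values of 1 liver marker are not reported here. Alternatives changed the window, the threshold, the number of peaks, the joining of peaks, the summit rule, the number of nearest-length genes and the libraries used.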

Additional observations from a re-analysis of the deposited data

How the results depend on the processing

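Of 72 values recomputed under other settings, 0 reversed, 70 kept their direction or size, and 2 lost their direction or moved by over 1.5 times. Some of these outcomes were fixed in advance. Counts of genes have no direction and could not reverse, and the count over all libraries cannot fall when a library is left out. The numbers from genes of equal length were judged by a binomial interval around the main number. Restricted to 1 kb around gene ends, the genes with a peak in all 4 libraries numbered 13, and with an equal number of 37951 peaks the ratio of genes with a peak was 1 and that of peaks 0.912. The first window is smaller by construction. Leaving out each library in turn gave ratios of 0.707 to 0.723 for peaks, 0.506 to 0.569 for bases under peaks, 0.870 to 0.940 for genes with a peak and 0.783 to 0.874 for median width, and 21 to 22 genes with a peak in every remaining library. GATA1 joined these without lactate replicate 2 and CD4 without lactate replicate 3. With a replicate block the ratios were 0.715, 0.538, 0.904 and 0.826, equal to the main ratios by construction. The smallest p of the exact sign-flip permutation test with that block is 0.5. The labels do not say whether libraries of equal replicate number belong together. Over 5720 genes, the differences between replicates 2 and 3 in log2 length under peaks had a correlation of 0.0250 between treatments. That value cannot show whether such libraries shared a culture or batch. With 100 or 500 nearest-length genes, or 200 on the same chromosome, 9.70, 9.18 and 9.65 genes would have a peak in all 4 libraries. After seeing the data, PAX5 was left out (20 genes with a peak in all 4 libraries), as were peaks that touch another coding gene (20, without CD14). The number of libraries limits every comparison, and depth is not stated in the lists.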
